A study of Mus musculus with 20 samples.

Results

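The genes described are the protein-coding mouse genes whose names start with Nduf, the subunits and assembly factors of respiratory complex I, that were listed in at least 1 of 4 tables of differentially expressed genes. There were 29 of them among 6261 genes listed in any table. RNA-seq was run on the AML-12 line, mouse hepatocytes that grow without limit in culture, in 4 groups of 5 libraries. The groups were WT and Ripk3-/- cells, each left untreated or kept for 24 h in 125 µM palmitate bound to bovine serum albumin. RIPK3 is a kinase that drives necroptosis, and palmitate, a saturated fat, is given to liver cells to imitate excess lipid. No group with albumin alone is described, so the fatty acid and the albumin cannot be told apart. Neither the number of knockout clones nor the number of cultures behind each group is given in the labels. Clone and genotype thus cannot be told apart, and p-values cover only the spread between libraries, which may be technical.

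Complex I is the entry point of the respiratory chain: it passes electrons from NADH to ubiquinone and pumps protons across the inner mitochondrial membrane. It has an N module that oxidises NADH, a Q module that reduces ubiquinone and a membrane arm that pumps protons, and around its core lies a shell of accessory subunits. Most subunits are encoded in the nucleus and some in mitochondrial DNA. Hepatocytes oxidise fatty acids, and complex I takes up much of the NADH that this yields. Of the 29 members, 2 are N module core subunits, 6 N module accessory subunits, 3 Q module core subunits and 1 a Q module accessory subunit. A further 6 lie in the membrane arm near the Q module, 8 lie at its tip, and 2 are assembly factors. The last, Ndufa4, carries the family name but is now known as a subunit of complex IV. The annotation GENCODE M21 holds 46 protein-coding Nduf genes, and the other 17, among them the core subunits Ndufs1 and Ndufs3, were not analysed here.

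The promoters of the 3 members with the largest difference between untreated genotypes, and of the single member that was lower in the knockout, are shown because these genes mark the ends of the range. Each runs 5′ to 3′ from 250 bases before to 50 bases after the gene start in RefSeq, build GRCm38.p6. They are Ndufa3 at chr7:3617123-3617422 on the plus strand, and Ndufc1 at chr3:51408906-51409205, Ndufa5 at chr6:24527477-24527776 and Ndufb8 at chr19:44555393-44555692 on the minus strand. For Ndufa5 the first of 2 entries was used, and it lies wholly inside the gene's annotated span, chr6:24518666-24528013. Its first 250 bases are thus not upstream of the whole gene. The lack of matches in it cannot be set beside the other promoters. Capitals mark matches, on either strand, to AAGATGGC (a YY1 site), GCGCATGC (the core of an NRF1 site) or CCGGAAG (an ETS/GABP site).
Ndufa3: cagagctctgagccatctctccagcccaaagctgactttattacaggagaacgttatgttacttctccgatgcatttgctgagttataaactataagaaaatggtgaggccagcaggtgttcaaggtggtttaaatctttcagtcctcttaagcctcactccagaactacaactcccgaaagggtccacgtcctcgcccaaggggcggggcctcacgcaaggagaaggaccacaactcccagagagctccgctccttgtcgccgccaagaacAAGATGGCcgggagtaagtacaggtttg
Ndufc1: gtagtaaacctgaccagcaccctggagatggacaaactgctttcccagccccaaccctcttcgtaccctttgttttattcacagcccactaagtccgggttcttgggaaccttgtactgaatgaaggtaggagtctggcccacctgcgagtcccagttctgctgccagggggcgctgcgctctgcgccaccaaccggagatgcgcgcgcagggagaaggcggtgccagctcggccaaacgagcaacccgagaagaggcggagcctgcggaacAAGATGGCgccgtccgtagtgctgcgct
Ndufa5: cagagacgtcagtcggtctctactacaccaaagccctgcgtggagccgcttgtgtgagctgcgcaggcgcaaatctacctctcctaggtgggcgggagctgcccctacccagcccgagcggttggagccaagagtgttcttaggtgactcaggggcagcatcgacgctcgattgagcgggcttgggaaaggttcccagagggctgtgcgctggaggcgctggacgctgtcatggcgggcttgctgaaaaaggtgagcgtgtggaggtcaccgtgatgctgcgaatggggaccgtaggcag
Ndufb8: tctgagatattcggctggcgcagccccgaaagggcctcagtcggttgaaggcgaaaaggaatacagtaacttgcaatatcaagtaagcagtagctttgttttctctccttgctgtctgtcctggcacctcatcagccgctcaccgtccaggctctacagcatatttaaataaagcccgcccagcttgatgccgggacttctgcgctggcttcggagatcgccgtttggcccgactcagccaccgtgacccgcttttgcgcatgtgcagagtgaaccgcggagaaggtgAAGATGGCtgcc

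The YY1 letters stand in 3 of these promoters, those of Ndufa3, Ndufc1 and Ndufb8, so they are shared by genes at opposite ends of the range. Over the 26 members with a usable entry, 7 promoters (26.9%) held them, against 2.88% of 27025 promoters of the same length. The NRF1 core stood in 4 of the 26 (15.4%, against 2.8%) and the ETS/GABP letters in 3 (11.5%, against 9.12%), and 13 of the 26 held at least 1 of the 3 motifs. In 6 of the 7 members with the YY1 letters, the ATG inside them is an annotated start codon, so the match lies over the start of the coding sequence. A match describes the letters and does not show binding.

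Ripk3 was read 1 to 8 times per library in untreated knockout cells and 12 to 28 times in untreated WT cells. With palmitate it had 2 to 10 reads in knockout and 19 to 28 in WT libraries, so every knockout library was below every WT library of the same treatment. Library totals ran from 21.2 M to 30.1 M reads. Hepatocyte genes ranged widely in level. Ambp was at 291.7 ± 13.9 FPKM in untreated WT and 182.2 ± 5.4 in untreated knockout cells (SD, n = 5). Alb was low, at 3.49 ± 0.141 and 3.16 ± 0.388, and Fgb lower still, at 0.378 ± 0.117 and 0.176 ± 0.0689. Ttr was high, at 429.1 ± 31.5 FPKM in untreated WT cells. Of 12 hepatocyte markers, 5 were listed between untreated genotypes, 2 higher and 3 lower, and with palmitate 4 were higher and 3 lower. Those higher without palmitate were Trf (0.74, SE 0.19) and Serpina1a (0.57, SE 0.20, edgeR adjusted p = 0.0831). Those higher with palmitate were Trf (0.80, SE 0.075), Serpina1a (1.15, SE 0.13), Ttr (0.38, SE 0.03) and Hnf4a (0.10, SE 0.03). Apoe, another hepatocyte gene, was at 41.7 ± 4.0 FPKM in untreated WT and 5.77 ± 0.78 in untreated knockout cells, a log2 fold change of -2.86 (SE 0.09). Of 6 biliary markers, 3 were listed between untreated genotypes, Krt19 (0.41, SE 0.06) and Spp1 (0.33, SE 0.05) higher and Sox9 (-0.23, SE 0.05) lower, and with palmitate 3 were higher and 1 lower. Of 7 mesenchymal and stellate markers, Des (0.84, SE 0.26) and Vim (0.12, SE 0.04, edgeR adjusted p = 0.0624) were listed higher without palmitate, and both again with it. Des was at most 0.244 FPKM in any group mean. Other biliary and mesenchymal markers were high: in untreated WT cells Spp1 was at 629.3 FPKM, Vim at 176.1, Krt19 at 129.2 and Sox9 at 61.7. Krt7, with values only with palmitate, was at 7.18 FPKM in WT cells. Of 6 macrophage and leukocyte markers Cd14 was listed higher between genotypes (0.35, SE 0.05, without palmitate), and of 5 endothelial markers none was listed. The part of these marker differences in the complex I results was not tested. In bulk RNA, a change in the make-up of the culture and a change in RNA per cell cannot be told apart.

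Most listed complex I genes were higher in Ripk3-/- than in WT cells. edgeR called 14 of 21 listed members higher without palmitate, and 28 of 29 higher and 1, Ndufb8, lower with it. With a gene length correction, edgeR called 8 members in either direction without palmitate, and the median log2 fold change was 0.041. With palmitate the calls and the median were also lower under that correction. Uncorrected differences were small for most, with a median log2 fold change of 0.27 over the 21 members listed without palmitate and 0.29 over the 29 listed with it. The genes furthest apart were 4 small accessory subunits, Ndufa3, Ndufc1, Ndufa1 and Ndufa5, and the core subunits Ndufv1, Ndufv2, Ndufs7 and Ndufs8 differed by 0.12 to 0.23 with palmitate. Fold changes, on the log2 scale with SE, were estimated by edgeR from 5 libraries per group. Levels are the authors' FPKM, which is scaled by library size and by the exon length assigned to each gene. Levels of different genes can be compared only as far as that length matches the RNA made.

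Without palmitate, the authors' deposited table listed 21 members, 20 higher and 1 lower in knockout cells. Of 16106 genes tested, 9.09% were listed higher and 8.88% lower. Membership requires a listing in some table, so these counts describe the members and do not test them. From the same counts edgeR called 14 members higher and 0 lower at an adjusted p under 0.05, against 7.08% and 7.42% of the genes tested. The other 7 members had an unadjusted edgeR p under 0.05 as well, and DESeq2 called 19 of the 21. Groups did not overlap for 4 of the 21 members (19.0%), against 57.0% of 2894 listed genes.

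With palmitate, all 29 members were listed, 28 higher and 1 lower, where 12.3% of 17611 genes tested were listed higher and 12.3% lower. edgeR called 28 higher and 1 lower, against 12.1% and 12.1%. Here the groups did not overlap for 23 of the 29 members (79.3%), against 70.5% of 4333 listed genes. Both genotype comparisons use different libraries, but a member listed in only 1 of them is not shown to differ between them.

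**Figure D1:**
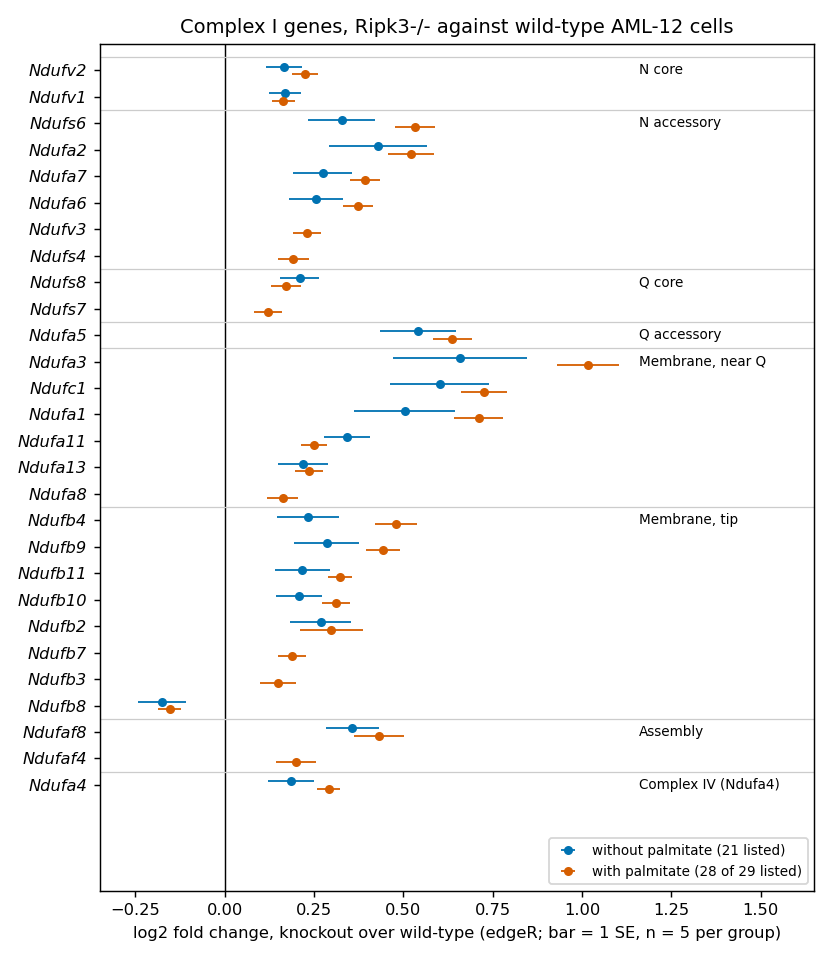
Log2 fold change of each member, knockout over WT (x axis; bars are 1 SE, 5 libraries per group), grouped by role, without palmitate (blue, 21 members) and with palmitate (orange, 28 of the 29 members). Ndufa3, Ndufc1, Ndufa1 and Ndufa5 lie furthest right, and Ndufb8 is the only member left of 0.

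The core of the N module is made of the flavin-binding subunit Ndufv1, where NADH is oxidised, and its iron-sulfur partner Ndufv2, among the members. Values of each library are given in the order of replicates 1 to 5. Ndufv1 (ENSMUSG00000037916, chr19:4007497-4012806) stood at 62.7, 60.8, 66.9, 63.3 and 60.1 FPKM in untreated WT and at 69.9, 67.4, 68.4, 69.0 and 79.0 FPKM in untreated knockout libraries. With palmitate it stood at 65.5, 57.7, 62.7, 58.3 and 60.9 FPKM in WT and at 65.6, 70.6, 67.8, 68.2 and 69.5 FPKM in knockout libraries. All knockout libraries were above all WT libraries of the same treatment, by a narrow margin with palmitate. The log2 fold change was 0.17 (SE 0.04, edgeR adjusted p = 0.0198) without and 0.16 (SE 0.03, edgeR adjusted p = 0.000554) with palmitate. Ndufv2 (ENSMUSG00000024099, chr17:66078795-66101559) stood at 41.0, 37.7, 44.9, 42.4 and 41.4 FPKM in untreated WT and at 44.2, 45.9, 45.7, 45.3 and 52.0 FPKM in untreated knockout libraries. Knockout replicate 1 lay below WT replicate 3, and the other knockout libraries lay above all of WT. With palmitate Ndufv2 stood at 41.9, 37.1, 38.7, 39.2 and 35.5 FPKM in WT and at 44.2, 44.3, 45.5, 45.2 and 46.0 FPKM in knockout libraries, with no overlap. Its log2 fold change was 0.17 (SE 0.05, edgeR adjusted p = 0.0396) without palmitate, a call lost in 8 of 10 fits with 1 library left out and with the filter at a mean of 100 counts (edgeR adjusted p = 0.0542). With palmitate it was 0.23 (SE 0.04, edgeR adjusted p = 7.44e-05).

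The core of the Q module includes Ndufs7, which lines the ubiquinone pocket, and Ndufs8, which carries iron-sulfur clusters. Ndufs8 (ENSMUSG00000059734, chr19:3908870-3912717) stood at 70.0, 62.4, 76.2, 72.2 and 64.7 FPKM in untreated WT and at 79.3, 76.6, 76.2, 80.8 and 87.4 FPKM in untreated knockout libraries. The lowest knockout and the highest WT library met at 76.2 after rounding, and the others were apart. Its log2 fold change was 0.21 (SE 0.06, edgeR adjusted p = 0.0198). With palmitate Ndufs8 stood at 79.5, 67.0, 73.8, 67.2 and 73.3 FPKM in WT and at 76.7, 82.5, 83.3, 82.6 and 80.9 FPKM in knockout libraries. WT replicate 1 was above knockout replicate 1, and the log2 fold change was 0.17 (SE 0.04, edgeR adjusted p = 0.00412). Ndufs7 was listed only in the table with palmitate. Ndufs7 (ENSMUSG00000020153, chr10:80249121-80256794) stood at 29.3, 29.9, 28.8, 26.8 and 27.1 FPKM in WT and at 30.0, 30.6, 31.4, 31.1 and 31.0 FPKM in knockout libraries. The groups did not overlap but nearly touched, with a log2 fold change of 0.12 (SE 0.04, edgeR adjusted p = 0.0241) that lost the call when any 1 of 3 libraries was left out.

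The members furthest apart were accessory subunits, although other accessory subunits, such as Ndufb3 and Ndufa8, differed by less than the core subunit Ndufv2 with palmitate. Ndufa3 (ENSMUSG00000035674, chr7:3617373-3620327), a small membrane-arm subunit, stood at 37.0, 33.3, 41.7, 38.4 and 38.6 FPKM in untreated WT and at 33.5, 67.1, 60.6, 65.4 and 72.5 FPKM in untreated knockout libraries. Knockout replicate 1 lay within the WT range, and the other 4 knockout libraries were far above it. The log2 fold change was 0.66 (SE 0.19, edgeR adjusted p = 0.0473), and 0.81 without knockout replicate 1. The call was lost in the other 9 of 10 fits with 1 library left out (0.58 to 0.70) and with the filter at a mean of 100 counts (edgeR adjusted p = 0.0538). With palmitate Ndufa3 stood at 38.6, 32.0, 32.8, 31.7 and 30.6 FPKM in WT and at 53.9, 68.0, 70.4, 69.8 and 72.9 FPKM in knockout libraries. All knockout libraries were above all WT libraries, and the log2 fold change of 1.02 (SE 0.09, edgeR adjusted p = 5.47e-06) was the largest of the 29 members.

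Ndufc1 (ENSMUSG00000037152, chr3:51404677-51408988), another small membrane-arm subunit, stood at 16.2, 15.5, 18, 16.7 and 16.2 FPKM in untreated WT and at 16.5, 26.7, 25.7, 25.3 and 31.6 FPKM in untreated knockout libraries. Again replicate 1 was the only knockout library at the WT level. With palmitate Ndufc1 stood at 18.1, 14, 16.1, 14.7 and 14.3 FPKM in WT and at 22.6, 25.9, 26.4, 26.3 and 26.3 FPKM in knockout libraries, which did not overlap. Its log2 fold change was 0.60 (SE 0.14, edgeR adjusted p = 0.0164) without and 0.73 (SE 0.06, edgeR adjusted p = 6.35e-08) with palmitate. Ndufa1 (ENSMUSG00000016427, chrX:37187588-37191163), a single-pass membrane subunit needed for assembly, stood at 130.1, 109.8, 144.7, 139.1 and 119.0 FPKM in untreated WT and at 125.8, 188.8, 177.7, 206.8 and 214.3 FPKM in untreated knockout libraries. Replicate 1 was the knockout library inside the WT range. With palmitate Ndufa1 stood at 138.1, 118.2, 129.0, 108.4 and 110.6 FPKM in WT and at 173.9, 204.8, 203.2, 201.0 and 205.9 FPKM in knockout libraries, with no overlap. Its log2 fold change was 0.50 (SE 0.14, edgeR adjusted p = 0.0428) without palmitate, a call lost in 9 of 10 fits with 1 library left out. With palmitate it was 0.71 (SE 0.07, edgeR adjusted p = 5.94e-06).

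Ndufa5 (ENSMUSG00000023089, chr6:24518666-24528013), the Q module accessory subunit, stood at 30.4, 30.0, 36.7, 35.3 and 33.2 FPKM in untreated WT and at 36.7, 49.9, 45.2, 51.5 and 58.2 FPKM in untreated knockout libraries. Knockout replicate 1 met the highest WT library at the same printed level. With palmitate Ndufa5 stood at 35.3, 32.0, 31.4, 29.3 and 30.2 FPKM in WT and at 43.7, 48.2, 50.5, 52.9 and 50.6 FPKM in knockout libraries, with no overlap. Its log2 fold change was 0.54 (SE 0.11, edgeR adjusted p = 0.0056) and 0.64 (SE 0.05, edgeR adjusted p = 1.93e-08). The 3 other members near the Q module were smaller in effect with palmitate: Ndufa11 at 0.25 (SE 0.04), Ndufa13, also known as GRIM-19, at 0.24 (SE 0.04) and Ndufa8 at 0.16 (SE 0.04). All 6 members of that group, from a list of 9 genes, were called higher with palmitate, against 12.1% of the genes tested. They are members through a listing, so this count is no test.

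All 6 N module accessory members, from a list of 7 genes, were called higher with palmitate. Their log2 fold changes ran from 0.19 to 0.53, with no overlap between groups. Over all genes tested 12.1% were called higher, and for 70.5% of listed genes the groups did not overlap. Membership requires a listing, so counts by role describe the members and do not test them. Ndufs6, a zinc-binding subunit added late in assembly, had the largest, 0.53 (SE 0.05, edgeR adjusted p = 4.36e-07). Without palmitate 4 of them were listed, all higher, and edgeR called 3, the exception being Ndufa2 at 0.43 (SE 0.14, edgeR adjusted p = 0.0671). At the membrane tip, a list of 13 genes, edgeR called 7 higher and 1 lower with palmitate, against 12.1% and 12.1% of genes tested. Without palmitate it called 2 higher and 0 lower of 6 listed, against 7.08% and 7.42%. The higher ones ran from Ndufb3 at 0.15 (SE 0.05) to Ndufb4 at 0.48 (SE 0.06) with palmitate. Both assembly factors were higher with palmitate, Ndufaf8, a partner of the arginine hydroxylase Ndufaf5, by 0.43 (SE 0.07) and Ndufaf4 by 0.20 (SE 0.06). Ndufa4, the complex IV subunit, differed by 0.29 (SE 0.03, edgeR adjusted p = 1.19e-06) with palmitate.

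Ndufb8 (ENSMUSG00000025204, chr19:44548572-44555440), a membrane-tip subunit whose protein is widely used as a readout of complex I, went the other way. It stood at 39.4, 38.1, 41.8, 40.3 and 36.0 FPKM in untreated WT and at 39.7, 31.6, 31.4, 33.0 and 37.7 FPKM in untreated knockout libraries. Knockout replicates 1 and 5 lay inside the WT range, and the log2 fold change of -0.18 (SE 0.07, edgeR adjusted p = 0.114) did not pass. Without knockout replicate 1 it was -0.23 (edgeR adjusted p = 0.00682). With palmitate Ndufb8 stood at 40.0, 37.1, 38.4, 38.3 and 36.2 FPKM in WT and at 32.4, 34.7, 36.1, 34.2 and 33.5 FPKM in knockout libraries. All knockout libraries were below all WT libraries, and the log2 fold change was -0.15 (SE 0.03, edgeR adjusted p = 0.00107). Part of its exons, 4.26% of their bases, is shared with Gm20538 on the same strand. Such overlap, on either strand, touched 10 of the 29 members and was largest for Ndufa13 (30.0% of exon bases, with Tssk6) and Ndufb9 (19.5%, with Gm49356), whose values are uncertain to that extent.

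Levels spanned a wide range. With palmitate, where all 29 members have values, the highest means in knockout cells were 207.3 FPKM for Ndufa4, 201.2 for Ndufb11, 197.7 for Ndufa1 and 162.6 for Ndufa2, and the lowest were 7.24 for Ndufaf4 and 2.02 for Ndufb2. In WT cells Ndufa4 (169.4 FPKM) and Ndufb11 (161.0) also led and Ndufb2 (1.64) was again last. The exon length used for Ndufb2 is 5628 bases, for a coding length of 315, and for Ndufa1 419 bases, for 210. FPKM is divided by that length, so the low rank of Ndufb2 depends on the annotation. In knockout cells the libraries of Ndufa4, Ndufb11 and Ndufa1 overlapped, so their order is not separated by the spread. The core subunits named above sat in the upper and middle part of the order, with Ndufs8 at 81.2, Ndufv1 at 68.4, Ndufv2 at 45.0 and Ndufs7 at 30.8 FPKM.

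**Figure D2:**
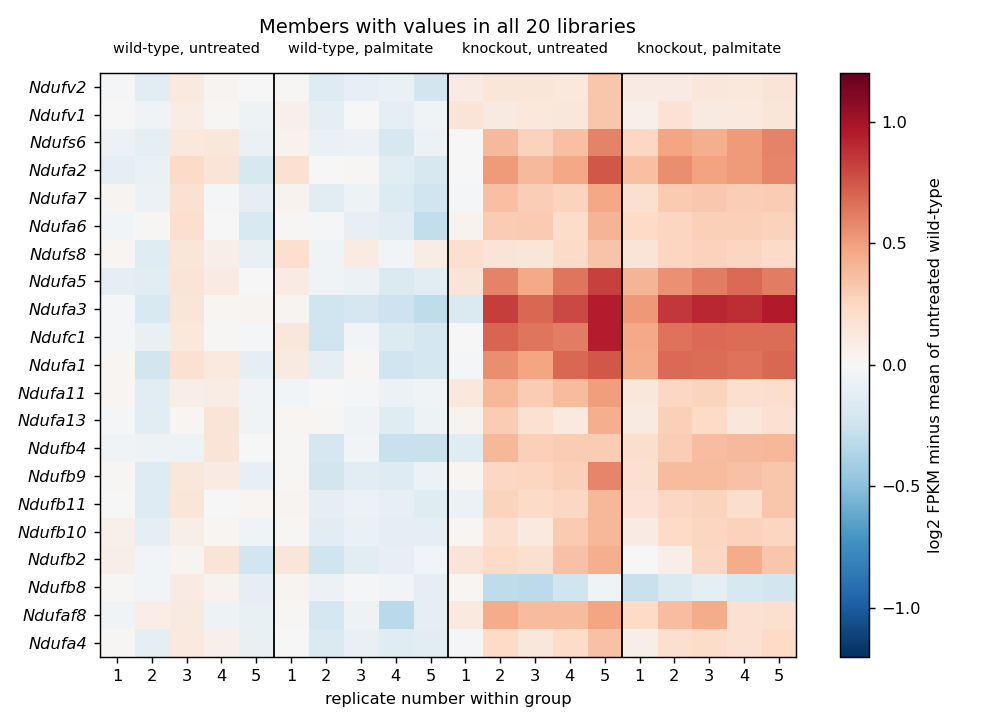
Log2 FPKM of each of the 21 members with values in all 20 libraries (rows), less its mean in untreated WT cells, per library (columns, replicate numbers within each group). Knockout columns are mostly red, except untreated knockout replicate 1 and the row of Ndufb8. All of these members were listed in both genotype comparisons.

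Members moved together from library to library, and 1 library stood apart. Over 20 libraries each of 20 members correlated with the mean of the others at r = 0.83 to 0.98, and Ndufb8 at r = -0.55. With group means removed these were 0.62 to 0.97, and 0.09 for Ndufb8. All 21 were listed in both genotype comparisons, 20 higher and Ndufb8 lower in knockout cells. High correlations over both genotypes, and the negative one of Ndufb8, are therefore expected from that choice. The libraries also share their depth and RNA preparation across members, so this is a description. The same correlations were not computed for other listed genes, so these values have no background beside them. In untreated knockout cells replicate 1 was the lowest library for 18 of 21 members and lay within the WT range for 14. Without it, edgeR called 21 of 21 members, and groups did not overlap for 19 rather than 4. The shares over all listed genes without this library were not computed, so these counts have no background beside them. Over listed genes in general it also stood apart. Its chi-square per degree of freedom was 28.99 to 39.85 against its group, and 3.92 to 14.14 between the others. Leaving out any 1 of 8 other libraries reduced the 14 calls to between 4 and 9: knockout replicates 2 to 5 gave 6, 7, 6 and 6, and WT replicates 1, 2, 4 and 5 gave 6, 6, 9 and 4. The untreated count of calls therefore changes with the set of libraries fitted, while the median log2 fold change stayed between 0.22 and 0.32. With palmitate 26 to 29 members were called whichever library was left out.

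The summed FPKM of the 20 members other than Ndufa4 with values in every library was 1052 ± 76.4 in untreated WT and 1310 ± 162.5 in untreated knockout cells (SD, n = 5). It was 1002 ± 63.4 in WT and 1344 ± 62.7 in knockout cells with palmitate. Untreated knockout replicate 1 had 1064, inside the WT range of 967.6 to 1157, and the other 4 had 1371 ± 100.2. Every palmitate-treated knockout library, from 1234 to 1390, was above every palmitate-treated WT library, from 950.4 to 1103. All summed members were listed in both genotype comparisons, and all but Ndufb8 were listed higher in knockout cells. A higher sum in knockout cells thus follows from that choice and is no test. Ndufb11, Ndufa1 and Ndufa2 weigh most in it, with means of 201.2, 197.7 and 162.6 FPKM in palmitate-treated knockout cells. In knockout replicate 1 with palmitate 25 of 28 higher members were at their group's lowest, and in WT replicate 1 with palmitate 24 of 28 were at their highest.

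**Figure D3:**
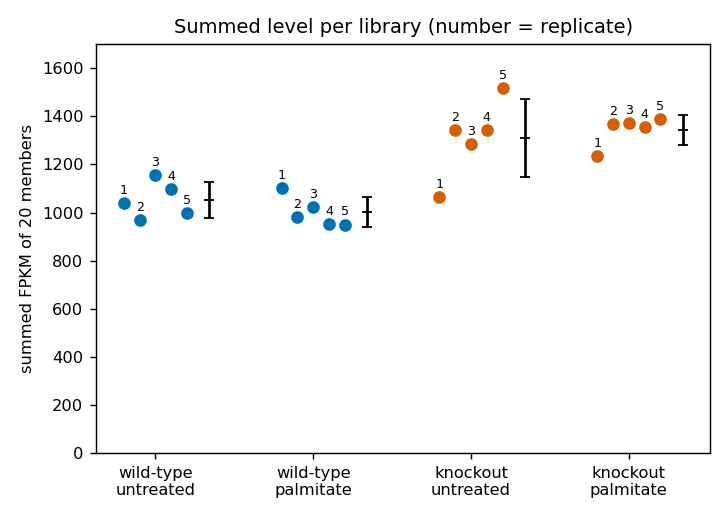
Summed FPKM of 20 members per library (y axis from 0), with the replicate number above each point and the group mean ± SD to the right. Untreated knockout replicate 1, at 1064, lies among the WT libraries. The summed members were all listed in both genotype comparisons, so the difference between genotypes is no test.

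Gene length moved with these results. Short genes were higher in knockout cells among the other listed genes too: with palmitate, 87.1% of the 271 not exceeding 600 bases were higher, and 42.4% of the 3027 over 2500 bases. The members are all protein-coding, while these other genes were not limited to that type. The genes that set the length correction below were not limited to it either. Among members with palmitate, the median log2 fold change was 0.62 for the 2 of up to 600 bases against 0.83 for other listed genes of that length, and 0.25 against 0.39 for the 6 between 600 and 1000 bases. Longer members lay above their length class: 0.46 against 0.24 for 8 members of 1000 to 1500 bases, 0.23 against -0.07 for 7 of 1500 to 2500 bases, and 0.19 against -0.11 for 6 above 2500 bases. Without palmitate the medians were 0.47 against 0.59 and 0.27 against 0.42 in the 2 shorter classes, and 0.26 against 0.24, 0.26 against -0.14 and 0.22 against -0.13 in the 3 longer classes. Across members the log2 fold change and exon length correlated at r = -0.47 (n = 21 genes) without and r = -0.50 (n = 29 genes) with palmitate. In other listed genes r was -0.19 (n = 2873) and -0.28 (n = 4304). Untreated knockout replicate 1 was low for short genes in general, by 0.196 on the log2 scale below its group for 431 other listed genes of up to 1500 bases against 0.245 for the members, and 0.02 above it for genes over 2500 bases.

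**Figure D4:**
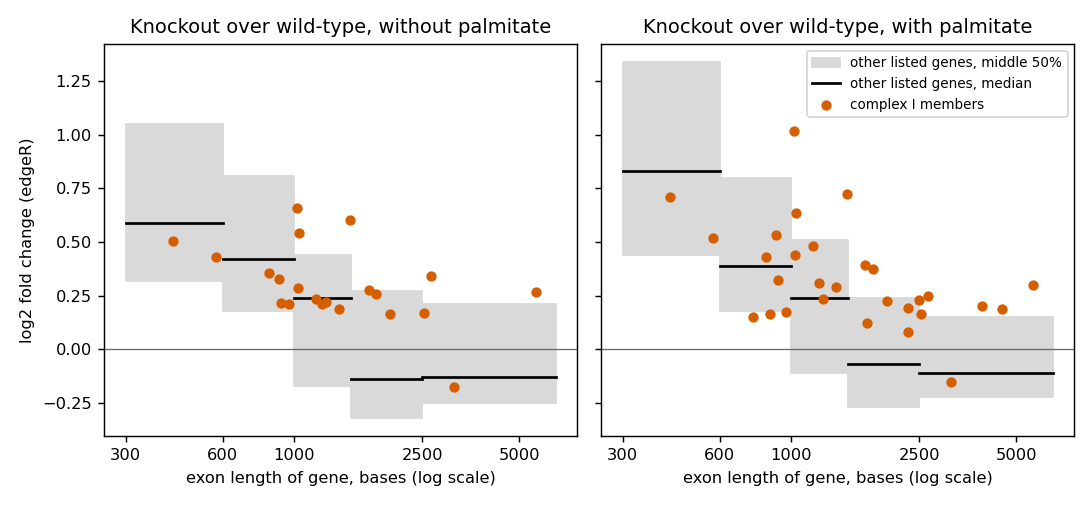
Log2 fold change, knockout over WT, against exon length (log scale) for members (orange points), with the median (black) and interquartile range of other listed genes in 5 length classes (grey, the outermost drawn to the axis range). Members above 1500 bases other than Ndufb8 lie above the black line.

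With a correction for gene length, edgeR called 8 members in either direction without palmitate, with a median of 0.041 over all listed members. With palmitate it called 21, with a median of 0.172. Ndufa3 stayed called with palmitate under that correction, but not without it (0.40, edgeR adjusted p = 0.102), and Ndufs7 with palmitate was at 0.016 and no longer called. Ndufa1, the shortest member, was then at -0.064 without palmitate and at 0.039 with it, neither called, and Ndufs8 turned to -0.05 without palmitate and to -0.15 (edgeR adjusted p = 0.00178) with it. The part of RNA quality or library preparation in the length pattern was not tested.

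For palmitate itself the members' counts were near or below those of all genes. In WT cells the authors' deposited table listed 3 members, all lower with palmitate, where 6.93% of 13764 genes tested were listed lower, and edgeR called 2, against 6.25%. Set against 29 members these are shares near the background, and are no result about the members. Groups did not overlap for 1 of the 3, against 70.1% of 2174 listed genes. Ndufb7 (ENSMUSG00000033938, chr8:83566671-83571626), a membrane-tip subunit on the intermembrane-space side, stood at 11.5, 10.7, 12.8, 11.8 and 11.4 FPKM untreated and at 10.3, 10.2, 10.2, 10.2 and 9.9 FPKM with palmitate. All treated libraries were below all untreated ones, and Ndufb7 fell by 0.19 on the log2 scale (-0.19, SE 0.04, edgeR adjusted p = 0.00419). Ndufs4 (ENSMUSG00000021764, chr13:114287795-114388258), an accessory subunit whose loss in mice gives a Leigh-like encephalopathy, stood at 19.5, 19.0, 20.7, 20.2 and 20.4 FPKM untreated and at 19.7, 18.1, 18.6, 16.5 and 17.8 FPKM with palmitate. Treated replicate 1 was inside the untreated range, and the log2 fold change of -0.14 (SE 0.04, edgeR adjusted p = 0.0465) lost its call in 8 of 10 fits with 1 library left out. Ndufa3 was at -0.19 (SE 0.06, edgeR adjusted p = 0.0625) and did not pass, and treated replicate 1, at 38.6 FPKM, was inside the untreated range. Without that library it was -0.25 (edgeR adjusted p = 0.00676). In knockout cells 0 members were listed, where 10.2% of 12871 genes tested were.

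For the 21 members with counts in all 20 libraries, palmitate could be compared in both genotypes in 1 fit over the 2993 genes with such counts. These genes were listed for genotype or for palmitate, so most were called between genotypes: all 21 members in both comparisons, against 80.6% and 79.5% of the 2993 genes. For palmitate in WT cells 20 members had a negative and 1, Ndufs8 at 0.06, a positive log2 fold change, with a median of -0.09 against 0.00 for all 2993 genes. None passed (smallest edgeR adjusted p = 0.077, Ndufv2 at -0.11, SE 0.05), where 42.0% of genes did, and 1 had an unadjusted p under 0.05. In knockout cells 13 were positive and 8 negative, with a median of 0.02, as for all genes. Again none passed (smallest edgeR adjusted p = 0.0564, Ndufa11 at -0.13, SE 0.05), where 40.2% did, and 1 had an unadjusted p under 0.05. With TMM scaling the knockout median turned to -0.018, and 1 member was called in each genotype. With DESeq2 size factors it was -0.034, and 5 members were called in WT and 1 in knockout cells. With the length correction it was -0.072, and 9 and 7 were called.

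The interaction, the palmitate effect in knockout less that in WT cells, was positive for 18 members and negative for 3, with a median of 0.10 against -0.01 for all genes. It ran from -0.09 (Ndufa11, SE 0.08) to 0.36 (Ndufa3, SE 0.21). No member passed (smallest edgeR adjusted p = 0.859, Ndufb4 at 0.24, SE 0.11), 1 had an unadjusted p under 0.05, and DESeq2 called 0. The same holds for all 2993 genes, of which 0.0% were called and 172 had an unadjusted p under 0.05. Members rise and fall together between libraries, so 18 of 21 signs are not 18 separate observations, and without untreated knockout replicate 1 the median was 0.04.

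**Figure D5:**
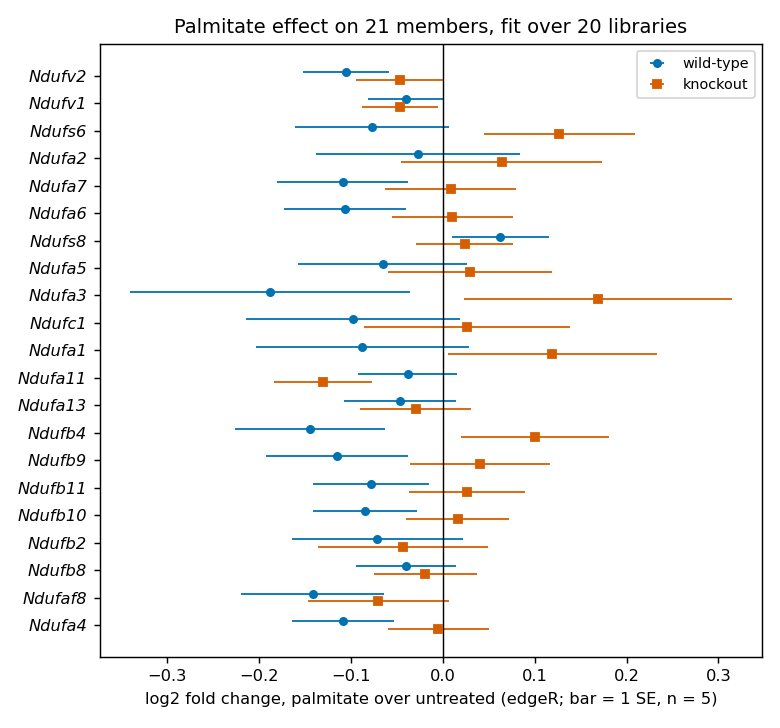
Log2 fold change, palmitate over untreated (x axis; bars are 1 SE, 5 libraries per group), of 21 members in WT (blue circles) and knockout cells (orange squares). WT points lie left of 0 for all but Ndufs8, knockout points lie on both sides, and no member passed in either genotype with the authors' scaling.

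Genes of the other respiratory complexes were listed in the same direction. Of 95 genes of complexes II to V, 24 were listed without palmitate, all higher in knockout cells (median 0.29, 21 called by edgeR). With palmitate 44 were listed, 43 higher and 1, Cox5a, lower (median 0.29, all called by edgeR). In WT cells with palmitate 8 were listed, all lower (median -0.13, 6 called), and in knockout cells 0. Over all genes tested for palmitate in WT cells, 6.93% were listed lower and edgeR called 6.25% lower. In knockout cells 10.2% were listed. The WT counts of complexes II to V are near that background and no result about those complexes. Among 15 further complex I assembly factors, 3 were higher in knockout than in WT cells when both had palmitate, Tmem126a (0.22, SE 0.04), Dmac1 (0.19, SE 0.06) and Tmem70 (0.17, SE 0.05), and none was listed between untreated genotypes. Palmitate lowered 2 of the 15 in WT cells, Tmem70 (-0.23, SE 0.04) and Sfxn4 (-0.39, SE 0.09). Of 7 mitochondrially encoded subunits, mt-Nd3 was higher in knockout cells by 1.01 (SE 0.28) without and 1.70 (SE 0.14) with palmitate, while mt-Nd4 (0.12, SE 0.03) and mt-Nd5 (-0.12, SE 0.03) moved in opposite directions with palmitate. The length of mt-Nd3 is 348 bases, and listed non-members of up to 600 bases had medians of 0.59 without and 0.83 with palmitate. Values of these further lists were not corrected for gene length. Of 13 regulators of respiratory chain genes, the coactivator Ppargc1a was higher by 0.31 (SE 0.06) and 0.24 (SE 0.06). The nuclear receptor Esrra was at 0.11 (SE 0.04, edgeR adjusted p = 0.0699) without and 0.17 (SE 0.03) with palmitate, and Tfb2m, a mitochondrial transcription factor, was lower at -0.14 (SE 0.04) with palmitate. Of 17 iron-sulfur cluster genes, 1 was listed higher without palmitate and 3 with it, among them Bola1 (0.25, SE 0.07) with palmitate. Over all genes tested 9.09% were listed higher without and 12.3% with palmitate, so the counts of assembly factors, regulators and iron-sulfur genes are small numbers near that background and no result about those lists.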

How the data were processed

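RNA-seq of 20 libraries in 4 groups of 5 was deposited as 4 tables, 1 per comparison of 2 groups. Per the submitters' processing notes, the tools were FastQC 0.11.9, HISAT2, featureCounts 1.5.0-p3 and DESeq2 with build mm10. For the annotation release and for whether counting used strand, the entry is: not given in the sources used here. Overlapping genes on opposite strands could therefore not be separated. Per the file headers, each table holds the authors' read counts per gene, FPKM, normalised counts (a signal in which counts are scaled by a library factor), and, from their own test, a log2 fold change, a p-value and its adjusted form. Each deposited table lists only genes with an adjusted p-value under 0.05. The number of genes tested was worked out from those p-values and their Benjamini-Hochberg adjustment. There were 0 columns of other samples. No 2 libraries of a group agreed within sampling noise (chi-square per degree of freedom of at least 2.68 over 40 pairs).

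Differences were tested on the deposited counts with edgeR 4.0.16 (quasi-likelihood, robust) in R 4.3.3, 10 libraries per fit, with the authors' factors and the adjustment taken over all genes the authors tested. Each fit held the listed genes alone, and the others were counted as not passed. A further fit over 20 libraries took the 2993 genes with counts in every group, with the factors of the tables joined (largest residual 0.0029 on the log2 scale), and adjusted over those genes. DESeq2 1.42.0, TMM and DESeq2 size factors, a mean of at least 100 counts, a gene length correction, a replicate block and leaving out each library were alternatives. The fit functions were tested on simulated data without an outlying library. That test did not cover the length correction or the replicate block. Listed genes held 15.8% to 47.9% of a library's reads, so scaling over them alone is an alternative only.

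Members, lists and roles were chosen with earlier results of these data known. Named with values in every library were the nuclear core subunits, the 3 largest and 2 smallest differences in each table, members listed for palmitate and members against the main direction, except 1 core subunit that is not reported here. Other genes of the lists were named after their values were seen. Positions are those of the files (mm10). Exon overlaps came from GENCODE M21, in which 23 of 29 members had the same coordinates, and promoters from RefSeq (GRCm38.p6).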

Additional observations from a re-analysis of the deposited data

Results flagged for a closer look

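In 12 of 106 groups of 5 values, the highest or lowest library stood further from the others than Dixon's 95% limit allows, and chance flags about 1 in 20 groups. Members share libraries, so these are not separate events. Palmitate-treated knockout replicate 1 was low in 7 of them. There Ndufa1 was at 173.9 FPKM, against 201.0 to 205.9 in the other 4 libraries. Ndufa3 was at 53.9 (68.0 to 72.9), Ndufa7 at 52.3 (56.0 to 57.3), Ndufb10 at 50.4 (55.5 to 57.1), Ndufb9 at 44.5 (49.3 to 50.9) and Ndufc1 at 22.6 (25.9 to 26.4). The summed FPKM of 20 members was 1233.7 there, against 1354.4 to 1389.5. Untreated knockout replicate 1 was low for Ndufaf8, at 19.0 FPKM (22.8 to 24.4), and for Ndufb4, at 17.6 (23.7 to 25.7). Untreated knockout replicate 5 was high for Ndufv1, at 79.0 FPKM (67.4 to 69.9), and for Ndufv2, at 52.0 (44.2 to 45.9). Palmitate-treated WT replicate 1 was high for Ndufa3, at 38.6 FPKM (30.6 to 32.8).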

How the results depend on the processing

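The direction of the genotype difference held for the named members under all alternatives except the gene length correction, alone or with the replicate block. There Ndufa1 without palmitate was at -0.0637 and, with the block, -0.0626, Ndufs8 at -0.0500 and -0.0526, and Ndufs8 with palmitate at -0.150 and -0.150. The count of members called without palmitate, 14, was 9 with a mean of at least 100 counts, 8 with the replicate block, 8 with the length correction, 7 with both, and 4 to 21 with 1 library left out. The median with the length correction was 0.0413, or 0.0408 with the block, and with palmitate 0.172 and 0.174. In WT cells with palmitate the 2 calls became 1 with the mean filter and 1 to 3 with 1 library left out. In the fit over 20 libraries, whose alternatives were chosen after seeing the data, the 21 genotype calls without palmitate became 11 with the length correction in either form. The 0 palmitate calls in WT cells became 1 with TMM, 5 with DESeq2 size factors, 9 with the length correction, 10 with the block added, and 0 to 1 with 1 library left out. The 0 in knockout cells became 1, 1, 7, 7 and 0 to 1. The median palmitate effect in knockout cells turned from 0.0161 to -0.0178 with TMM, -0.0337 with DESeq2 size factors and -0.0722 with the length correction (-0.0723 with the block), and ran from -0.0405 to 0.0579 with 1 library left out. The causes were not tested.

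Whether replicate numbers pair the libraries was not settled. Same-number correlations were over 0.1 in 2 and 1 of 5 pairs for genotype without and with palmitate. For palmitate they were over 0.1 in 3 of 5 pairs in WT cells (0.06 to 0.31, mean 0.18). In knockout cells this held for 4 of 5 (-0.02 to 0.46, mean 0.22). It never held for all 5, and at most 2 of 5 libraries correlated best with their own number. With the block, Ndufa1 and Ndufa3 without palmitate had an edgeR adjusted p of 0.116 and 0.129. Only genes past the authors' threshold have values, so members that missed it in a table cannot be given there.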
